A study of Homo sapiens with 2 samples.

Results

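Haplotype contigs are extra sequences in the hg19 assembly that hold alternative versions of a few regions in which human chromosomes differ greatly. The peaks described here are all those of the deposited peak list that lie on a sequence with "hap" in its name, with pieces of a peak joined by peak name. They number 503 peaks on 533 lines, or 0.307% of the 164008 peaks listed. Of the peaks, 397 lay on 7 versions of the major histocompatibility complex (MHC) of chromosome 6 and 106 on 1 version of a stretch of chromosome 17. The samples were 2 libraries of 1 group, wild-type U2OS cells, an osteosarcoma cell line, synchronised by a double thymidine block and collected 2 hours after its removal. No untreated or unsynchronised group was analysed here. Both libraries stand in the list as 1 intersected set, so no test between samples could be made and every comparison below is a description without a p-value. The number of reads behind a peak is unknown, and the labels do not say whether the cultures were separate.

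Nascent strand sequencing maps the sites where DNA replication starts. Short new DNA strands carry an RNA primer that protects them from lambda exonuclease, so they can be separated from broken DNA. Mammalian origins are known to cluster in zones, and gene-rich, early replicating regions hold more of them than gene-poor ones. The MHC holds the HLA class I genes, the gene-dense class III stretch and the HLA class II genes, which present antigens or serve complement and inflammation. The border between class III and class II is a textbook example of a switch from early to late replication. The MHC haplotypes are known to differ in gene content, most of all around the HLA-DR and complement C4 genes. The 7 contigs are named apd, cox, dbb, mann, mcf, qbl and ssto after the homozygous cell lines from which they were sequenced, and the primary chromosome 6 holds a further haplotype. The contig of chromosome 17, named ctg5, covers the region of MAPT, the tau gene, which is known to exist in both orientations in the population. Which of these haplotypes U2OS carries was not analysed here. The sources used here do not state how reads that fit several versions equally well were placed, so the signal of a shared sequence cannot be assigned to 1 version.

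Fold enrichment is the authors' value for the whole replicate 1 peak, and a width is the span from the first to the last base of a peak that replicate 2 shares. Spacing runs between the end of 1 peak and the start of the next. Positions are in hg19 and, on a contig, count from its first base. Peaks are not assigned to genes, because no annotation of this build was used.

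The 7 MHC contigs differed widely in how many peaks they held and little in the median fold of those peaks. The ssto contig had the most with 93 peaks on 101 lines, followed by dbb with 69 peaks on 73 lines and mcf with 62 peaks on 62 lines. The cox and qbl contigs had 60 peaks each, mann had 41 and apd had only 12. Over the span from the first to the last peak this gave 22.4 peaks per Mb on ssto, 20.9 on dbb, 16.2 on qbl, 15.7 on mcf, 12.9 on cox, 11.8 on mann and 4.65 on apd. The contig with most peaks per Mb thus had several times the density of the sparsest, while qbl, mcf, cox and mann lay within 11.8 to 16.2. How much of each contig is a gap in the assembly was not analysed here.

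Median fold enrichment was 4.71 on ssto, 4.69 on mcf, 4.6 on cox, 4.41 on qbl, 4.37 on dbb, 4.28 on mann and 3.95 on apd. The mean of these 7 medians was 4.43 with an SD of 0.27 between contigs. Neighbours in this order differed by less than that SD in every step except that from mann to apd. The quartiles over all 397 peaks were 3.79 and 5.74. The medians of the contigs sat near the 4.73 of the whole list, and only apd and mann fell more than 0.4 below it. The lowest fold on any contig was 2.94. The strongest peaks differed more, with a highest fold from 7.76 on apd to 33.49 on dbb.

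Peaks on the contigs were narrow. Median width was 186 bp on ssto, 169.5 bp on apd, 165.5 bp on cox, 158 bp on dbb, 155 bp on mcf, 151 bp on qbl and 140 bp on mann, against 275 bp over the whole list. Of the 397 peaks 153 (38.5%) spanned at least 200 bp, where the share over all listed peaks was 60.9%. Replicate 2 cut 16 of the 397 (4.03%, exact 95% binomial interval 2.32% to 6.46%) into 2 or more pieces, against 15.2% of all listed peaks. These 16 lay on ssto (7), dbb (3), qbl (3), cox (2) and mann (1), and none lay on apd or mcf. The binomial intervals here and below cover counting error only and treat neighbouring peaks as independent.

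**Figure D1:**
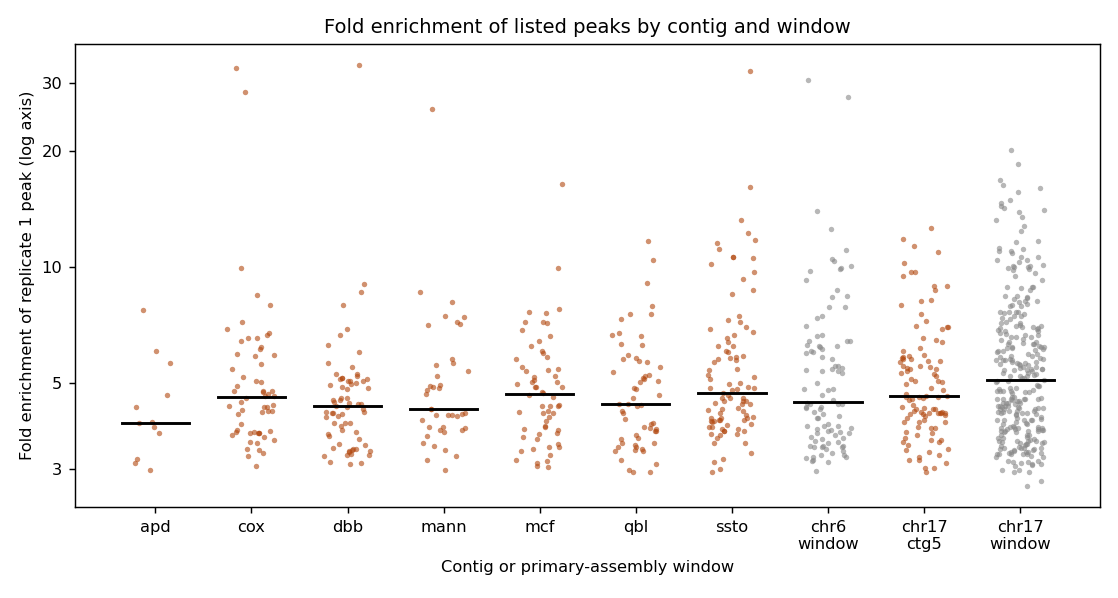
Each point is a listed peak, placed by contig or primary-assembly window (x axis) and by its fold enrichment in replicate 1 (y axis, log scale), with black bars at the medians. Medians of the MHC contigs lie between 3.95 and 4.71, close to the 4.48 of the chromosome 6 window, while peaks above 20-fold stand alone on cox, dbb, mann and ssto.

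Set against the same region of the primary chromosome, a window of 4.5 Mb that starts at 29 Mb of chromosome 6, the contigs taken over all listed peaks had a like median fold, fewer peaks per Mb and a lower median width. Among peaks spanning at least 200 bp the order of the widths turned, with medians of 409 bp on the contigs and 366.5 bp in the window, and the ratio of median folds of contigs to window was 0.875. The window held 98 peaks on 106 lines. Median fold was 4.496 over the contigs pooled and 4.480 in the window, and median width 161 bp over the contigs and 209.5 bp in the window. The contigs carried 15.4 peaks per Mb of span and the window 25.8, with median spacings of 12704.5 bp on the contigs and 5374 bp in the window. By span, no contig reached the density of the window as cut here, and ssto came nearest to it. Over its full 4.5 Mb the window held 21.8 peaks per Mb, below the 22.4 per Mb of span on ssto. Of the window's 98 peaks 31 lay in its last 0.25 Mb, so its density depends on where it is cut. In that part a stretch of 41.7 kb held 17 peaks with a median width of 448 bp, 6 of them at least 1000 bp wide. Whether each contig covers this part was not analysed here. Density and width were not recomputed without it, so neither contrast is between matched sequences. Spacing was longest on apd, with a median of 82393 bp, and shortest on dbb, with 7581 bp. The share of peaks cut into pieces was 4.03% on the contigs and 5.10% in the window (exact 95% interval 1.68% to 11.5%), and these intervals overlap. The contigs and the window are versions of the same region and come from the same 2 libraries, so they are not independent of each other.

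A smaller share of replicate 1 peaks was shared with replicate 2 on the MHC contigs than over the genome. Replicate 1 peaks were numbered along each sequence, so the numbers from the first to the last listed name give the peaks that replicate 1 had between them. Unlisted peaks outside that range are not counted. For the whole list the highest number, 230496, was used instead. On the 7 contigs 397 of 840 numbers were listed, or 47.3% (exact 95% interval 43.8% to 50.7%). The share was 55.2% on dbb, 52.0% on ssto, 49.2% on mcf, 44.8% on qbl, 43.2% on cox, 39.0% on mann and 37.5% on apd. In the chromosome 6 window 49.0% of the numbers were listed (exact 95% interval 41.9% to 56.1%), on the whole of chromosome 6 66.6% and in the whole list 71.2%. The contigs and the window therefore overlapped in this share, and both lay under chromosome 6 as a whole. The difference was not tested. Median −log10 q was 4.39 on the contigs, 4.32 in the window and 5.21 over the list, and its part in the retained share was not tested.

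The primary chromosome changed in peak density near the ends of the region that has contigs. On chromosome 6 the stretch from 26.25 to 28.5 Mb held 70 peaks, or 31.1 per Mb, and the stretch from 28.5 to 30.25 Mb held 3, or 1.71 per Mb. From 30.25 to 31.5 Mb there were 15, or 12 per Mb, and from 31.5 to 32.25 Mb 41, or 54.7 per Mb. From 32.25 to 33 Mb there were 2, and in the next 0.25 Mb 7. The last 0.25 Mb of the window held 31 peaks, or 124 per Mb, and the 0.75 Mb above the window 221, or 295 per Mb. The window thus had a populated block in its middle, a nearly empty lower part, a nearly empty stretch after the block and a crowded upper edge. With limits of 28 and 34 Mb the window held 268 peaks, or 44.98 per Mb, of which 155 lay above the upper edge of the narrower one. What part the existence of several versions has in these densities was not tested.

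**Figure D2:**
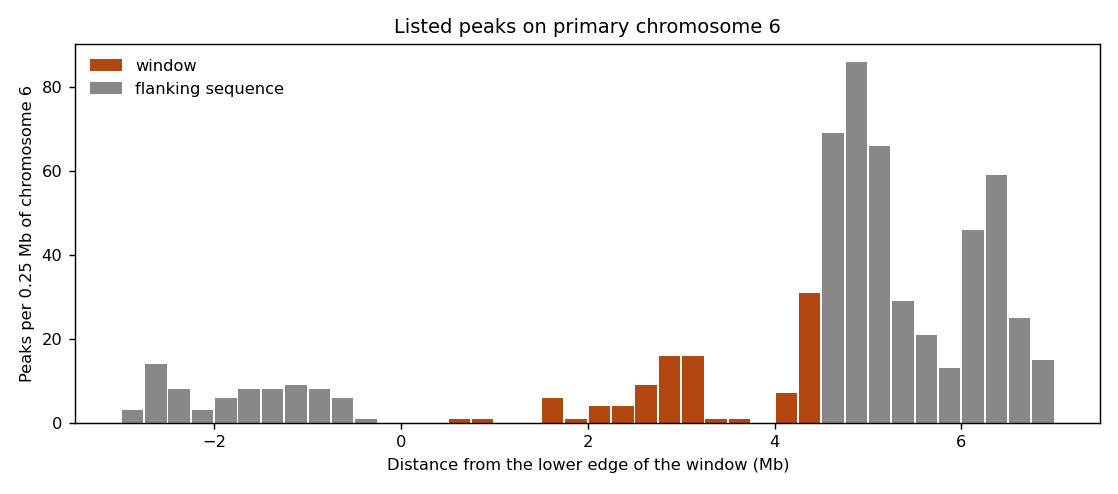
Bars show the number of listed peaks in each 0.25 Mb of primary chromosome 6, against distance in Mb from the lower edge of the window. Coloured bars lie in the window, which is nearly empty at its start, holds 41 peaks in the block from 31.5 to 32.25 Mb and is followed by far higher counts above its upper edge.

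The contigs too had crowded and empty stretches. On apd, cox, dbb, mcf, qbl and ssto the bin of 0.25 Mb with most peaks ran from 3.25 to 3.5 Mb of the contig's own positions, with 24 peaks on mcf, 20 on ssto, 19 on dbb, 17 on cox, 14 on qbl and 6 on apd. It held 38.7% of the peaks of mcf and 50.0% of those of apd. On mann the fullest bin lay from 2 to 2.25 Mb and held 8 peaks. The longest stretch without a peak was 1137 kb on cox, 1064 kb on apd, 1046 kb on qbl, 1021 kb on mann, 1007 kb on mcf, 590 kb on dbb and 505 kb on ssto. It was 689 kb in the chromosome 6 window. A long stretch without a peak was therefore present on every contig. The bins count from the first base of each contig, so the same bin need not hold the same stretch of the MHC.

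Peak positions were then compared by sliding 1 sequence along another and counting midpoints that fell within 500 bp of each other. The mcf contig matched the chromosome 6 window best, with 29 of its 62 peaks (46.8%, and 29.6% of the window's 98) coinciding at 1 shift, where the next best shift at least 20 kb away gave 13. The ssto contig had 22 coinciding peaks (next best 19), cox 18 (12), dbb 18 (11), qbl 15 (13), mann 12 (9) and apd 5 (5). Over all shifts tried the median count was 0 or 1. For apd, no shift stood out from the next best. Between 2 contigs the number ranged from 3 to 20 over 21 pairs, with a median of 10, and the best shift exceeded the next best in 14 pairs. Some ties lay at distant shifts, such as -1301.1 kb for mann and ssto and -2210.5 kb for apd and ssto. Their counts need not reflect aligned sequence. The pair with most coinciding peaks was cox and mcf, with 20, or 33.3% of the peaks of cox and 32.3% of those of mcf. MHC haplotypes are known to differ by insertions, so 1 shift need not align a whole contig.

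At the best shifts 119 contig peaks coincided with a window peak. They include 5 of apd, at a shift of 29921.8 kb that did not stand out. The best shifts of the other contigs lay between 28529.7 and 28714.2 kb. Over the 119 the median fold was 4.79 on the contigs and 4.66 in the window, with the contig higher in 52. Folds of a coinciding pair lay within 2-fold of each other in 113 cases (94.96%), against 80.9% over all pairs of a contig peak and a window peak. Median widths of the coinciding peaks were 190 bp on the contigs and 217 bp in the window. Most coinciding peaks thus had like folds, and this was only a modest step above the share that any pair showed.

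On 6 of the 7 contigs a peak called the recurring peak here was found. It was taken as the peak with the highest fold among those 400 to 440 bp wide, a rule set after the values were seen. On dbb it spanned 3501743 to 3502151 with a fold of 33.49, on cox 3693249 to 3693668 with 32.8 and on mann 3565365 to 3565795 with 25.7. The fold was lower on ssto (3570313 to 3570736, 12.3), qbl (3483706 to 3484107, 11.7) and mcf (3602442 to 3602847, 9.96). On primary chromosome 6 it spanned 32222533 to 32222951 with a fold of 30.7, the highest in the window. Its width, which the rule limits, was 402 to 431 bp on the contigs and 419 bp on the primary chromosome. The fold differed 3.36-fold between dbb and mcf. The rule had more than 1 candidate on mcf (6), mann (2) and qbl (2), and in the window (4). The recurring peak had the highest fold on cox, dbb, mann and qbl, the second on mcf and the fourth on ssto. No peak of this width was listed on apd. Sequence was not compared, so that these are the same site on each contig was not tested.

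**Figure D3:**
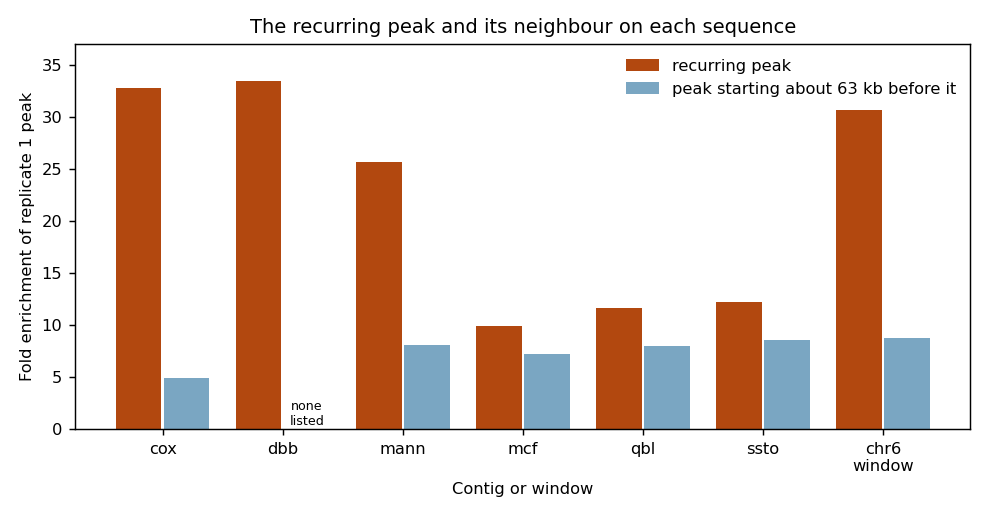
Bars give the fold enrichment of the recurring peak (brown) and of the peak that starts about 63 kb before it (blue) on 6 MHC contigs and in the chromosome 6 window. The recurring peak falls into a higher set (dbb, cox, mann and the window, 25.7 to 33.49) and a lower one (ssto, qbl and mcf, 9.96 to 12.3), whereas its neighbour stays between 4.93 and 8.75.

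Next, peaks that start 62 to 64 kb before the recurring one were looked up, a range also set after the values were seen. On cox, mann, mcf, qbl and ssto a second peak started 62.8 to 63 kb before the recurring one, and on chromosome 6 the distance was 62.9 kb. The fold of this neighbour was 8.54 on ssto, 8.12 on mann, 7.96 on qbl, 7.22 on mcf and 4.93 on cox, and 8.75 on chromosome 6. The dbb contig had no listed peak there. The spread of the neighbour was smaller than that of the recurring peak, and its order over the contigs was different: ssto was highest for the neighbour and among the lowest for the recurring peak.

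Of the 32 window peaks in the 500 kb before the recurring peak, 27 had a peak at the same distance, within 500 bp, on at least 1 of the 6 contigs. On at least 4 contigs 10 of the 32 did, and the most was 5 contigs. The mcf contig had a counterpart to 24 of them, cox to 16, dbb and qbl to 11 each, and mann and ssto to 5 each. These counts take any peak within 500 bp, so some pairs may not be the same site, which was not tested. On ssto 1 peak of 6.38-fold and 258 bp, at -262.184 kb from the recurring peak, was counted for more than 1 window peak. The window peaks at -262.681 and -261.933 kb are among the 27 only through this ssto peak. Mann listed only 7 peaks in this stretch, so few of its counterparts could be found. Ssto listed 25, but most of them lay farther from the recurring peak than those of the window, by a like amount. Its peaks at -303.113, -243.21 and -229.391 kb stand against window peaks at -288.034, -228.03 and -214.319 kb. In this order the ssto peak at -262.184 kb stands against the window peak at -247.065 kb, not against those it was counted for. The 5 of ssto thus misses pairs offset in this way, which were not counted. In the 100 kb after the recurring peak no contig had a listed peak, and neither had the primary chromosome. The next peak followed 157 kb further on qbl, 235 kb on ssto, 405 kb on dbb, 836 kb on cox, 1007 kb on mcf and 1021 kb on mann, and 267 kb on chromosome 6. The recurring peak was therefore the last before an empty stretch on all 6 contigs, and the length of that stretch varied.

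**Figure D4:**
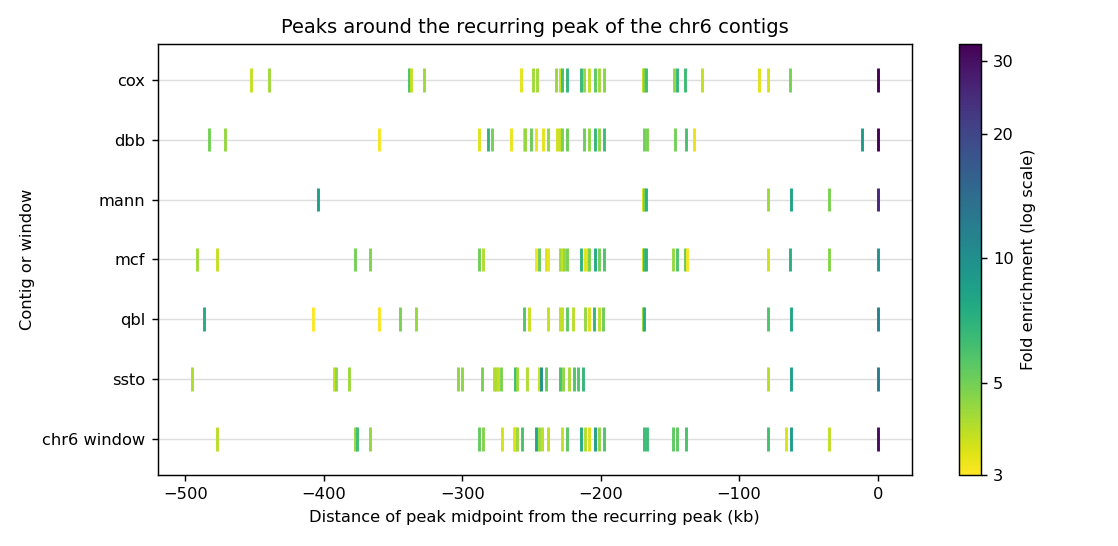
Ticks are listed peaks placed by the distance of their midpoint from the recurring peak (x axis, kb) on 6 MHC contigs and in the chromosome 6 window, coloured by fold enrichment on a log scale. The same groups of ticks line up on cox, dbb, mcf, qbl and the window, and mann shows few of them. Most ticks of ssto lie farther from the recurring peak than those of the window, by a like amount.

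Besides this neighbour, 2 of the window's peaks before the recurring one had a counterpart on 5 contigs. The peak 169 kb before it had folds of 7.57 on qbl, 6.44 on mcf, 5.06 on dbb, 4.96 on mann and 4.79 on cox, and 6.45 on chromosome 6. The peak at 79.0 kb had 5.82 on qbl, 4.29 on mann, 3.93 on ssto, 3.59 on mcf and 3.50 on cox, and 6.14 on chromosome 6. In both, qbl was the highest contig and cox the lowest, and chromosome 6 stood next below qbl in the first and above it in the second.

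Another of the strong peaks did not recur in strength. The fourth highest fold over the MHC contigs was 28.5, at 3052582 to 3052797 of cox. At the best or second shift its position coincided with peaks of 6.24-fold on mcf, 5.85-fold and 3.29-fold on ssto, and 5.44-fold on chromosome 6. Of the other contigs, dbb, mann, qbl and apd had no coinciding peak at these shifts. Mann did list a peak of 7.09-fold and 122 bp that these shifts missed. Its distance from the recurring peak was within 500 bp of that of the mcf and chromosome 6 counterparts. The top peak of mcf, at 1344623 to 1344818 with 16.5-fold, and that of apd, at 1202590 to 1202756 with 7.76-fold, also lay outside the crowded block. Further peaks among the 10 highest were on ssto, at 3902502 to 3902891 with 16.1-fold and at 837362 to 837480 with 13.3-fold.

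Folds of 10 or more were concentrated at the far end of ssto. Of the 397 peaks 18 (4.53%, exact 95% interval 2.71% to 7.07%) reached 10-fold, against 7.15% of all listed peaks and 8.16% of the window's (exact 95% interval 3.59% to 15.5%). Ssto held 11 of them and the other 6 contigs together 7 of 304 peaks. Without ssto the share was 2.30%. In the window 5 of the 8 peaks of 10-fold or more lay in the stretch that matches the end of ssto, described below. The share of the window thus rests largely on that stretch. Within ssto 7 of the 11 lay among 16 peaks in 44.9 kb, from 4858523 to 4903393, and 4 among the other 77 peaks of the contig. The widest peaks were there too: 7 of these 16 spanned at least 1000 bp, against 3 of the other 77 on ssto and 5 of the 304 on the other contigs. The end of ssto was thus unlike the rest of that contig in fold, width and spacing, with medians of 6.62-fold, 664.5 bp and 1385 bp at the end and 4.502-fold, 165 bp and 17931.5 bp elsewhere.

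The same block existed on the primary chromosome. At the second best shift of ssto 13 of the 16 peaks coincided with peaks between 33381262 and 33422952 of chromosome 6, a stretch of 41.7 kb with 17 peaks, a median fold of 7.05 and a median width of 448 bp. The strongest, at 4868402 to 4869528 of ssto, was 1127 bp wide with 32.4-fold, and its counterpart at 33387861 to 33389226 was 1366 bp wide with 27.7-fold. The widest, at 4879061 to 4882199 of ssto, spanned 3139 bp at 10.6-fold, and its counterpart spanned 2998 bp at 9.78-fold. Another, at 4890339 to 4892046, spanned 1708 bp at 10.6-fold and its counterpart 2169 bp at 11.1-fold. The most unequal pair was the last, with 5.90-fold on ssto and 10.1-fold on chromosome 6. No listed peak of the other 6 contigs lay beyond 4833290, the last position on mcf. Positions count from the first base of each contig, so the same position need not be the same place. Whether the other 6 contigs hold this sequence was not analysed here.

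The contig of chromosome 17 had more peaks per Mb than any MHC contig, and its peaks ran in opposite orientations along its length. It held 106 peaks on 118 lines, or 63.4 per Mb, with a median fold of 4.64, a median width of 213 bp and a median spacing of 4338 bp. Chromosome 17 from 43 to 45 Mb, which contains the corresponding region and more, held 291 peaks, with 5.10-fold, 315 bp and 2530.5 bp. Of the contig's peaks 12 (11.3%, exact 95% interval 5.99% to 18.9%) were cut into pieces, against 15.1% in the window. Listed numbers made up 68.4% on the contig (exact 95% interval 60.4% to 75.6%) and 73.5% in the window (68.8% to 77.8%). Both shares lay above the 55.2% of dbb, the highest of the MHC contigs. The highest fold on the contig was 12.7, at 960837 to 961052, and 5 peaks (4.72%) reached 10-fold. Its widest peak, at 124232 to 125762, spanned 1531 bp in 2 pieces at 6.92-fold.

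The first 0.25 Mb of the contig held 40 peaks, and 35 of them coincided with peaks of chromosome 17 at a shift of 43384.7 kb in the same orientation, where the next best shift gave 19. In the inverted orientation the best shift gave 19. Between 0.75 and 1.25 Mb lay 51 peaks, of which 36 coincided in the inverted orientation (next best 23) and 22 in the same orientation. The first stretch thus ran along chromosome 17 and the second against it. The coinciding peaks of the second stretch spanned 777697 to 1122233 on the contig and 43745088 to 44090467 on chromosome 17. Only 4 peaks lay between these stretches and 11 from 1.5 to 1.75 Mb. For the last 11 both orientations gave 9 coinciding peaks, so no placement could be read from them. The whole contig was also compared at 1 shift, with 36 of 106 peaks coinciding in the same orientation and 39 in the inverted one.

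**Figure D5:**
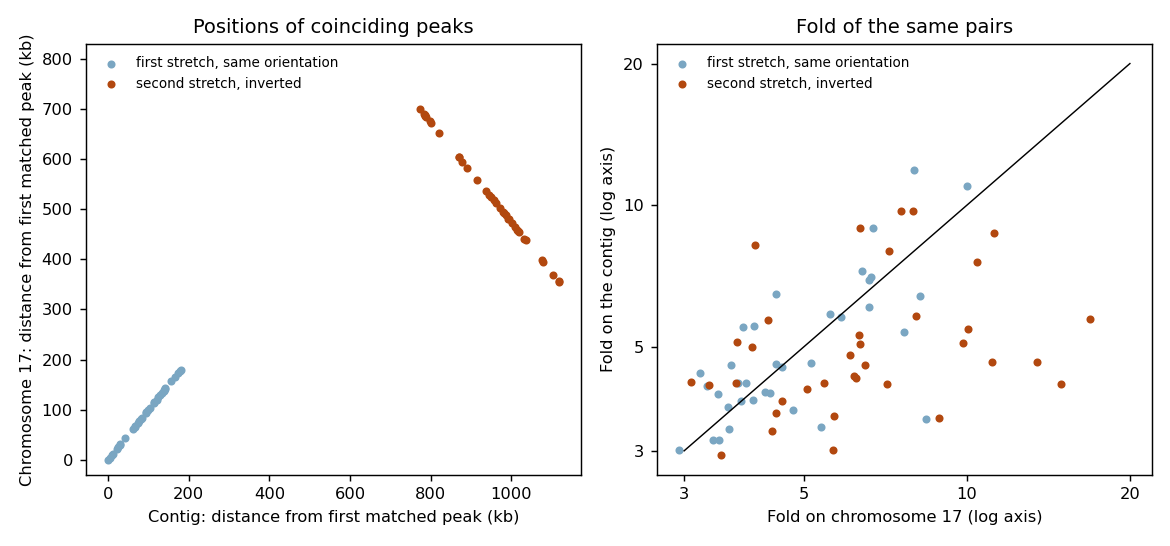
Left, each point is a pair of coinciding peaks, placed by distance from the first matched peak on the contig (x axis, kb) and on chromosome 17 (y axis, kb). The first stretch (blue, 35 pairs) climbs and the second (brown, 36 pairs) descends. Right, the folds of the same pairs on log axes with the line of equality, around which the first stretch scatters, while most of the second lies below it.

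These stretches also differed in how the contig compared with the primary chromosome. In the first stretch the coinciding peaks had a median of 4.52-fold on the contig and 4.44-fold on chromosome 17, and the contig was higher in 19 of 35 pairs. In the inverted stretch the medians were 4.64-fold on the contig and 6.28-fold on chromosome 17, and the contig was higher in 11 of 36. Counting every listed peak between the outermost pairs, the first stretch had 38 peaks in 180 kb on the contig and 40 in 180 kb on chromosome 17. The inverted stretch had 47 in 345 kb on the contig and 77 in 345 kb on chromosome 17. Median width was 292 bp on the contig and 229 bp on chromosome 17 in the first stretch, and 145 bp on the contig and 263 bp on chromosome 17 in the second. The contig therefore held nearly as many peaks as the primary chromosome in the first stretch, and fewer, with lower median width and fold, in the inverted one. The difference between stretches was not tested, and the rest of the contig was not compared in this way. Listed numbers made up 77.6% on the contig and 80.0% on chromosome 17 in the first stretch, and 69.1% on the contig and 71.3% on chromosome 17 in the second.

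No line of the list lay on a haplotype contig of chromosome 4, and chromosome 4 from 69 to 70 Mb, around the sequence that contig is known to replace, held 0 peaks as well. None of the 183632 lines of the 6 replication timing lists lay on a haplotype contig, so no peak described here has a timing class. The chromosome 6 window held 98 timed intervals, of which 47 were mid early, 42 early, 5 very early and 4 mid late. In the chromosome 17 window there were 286, with 179 early, 77 very early, 17 mid early and 13 mid late.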

How the data were processed

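Per the submitters' processing notes, reads were aligned with BWA and peaks called with MACS2 on hg19, without versions or parameters. The sources used here do not state whether reads with several best matches were kept, or against what the enrichment was taken. The deposited broad peak list has no header, and its names carry the library name of replicate 1. The authors' fold, or ratio, and −log10 q values describe the replicate 1 peak, while the intervals are the parts shared with replicate 2. The deposited score columns were not used. The number of reads per peak is unknown.

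Lines were joined by peak name. A peak belonged to a window if its midpoint did. Shifts were tried in steps of 100 bp, and the scan was tested on simulated data. Named peaks were the highest and the widest on each contig, the 10 highest over all contigs and the 3 highest in the window, with counterparts of the 5 highest MHC peaks at the best or second shift. The recurring peak, its neighbours, the stretches of chromosomes 6 and 17 and the end of ssto were chosen after their values were seen. The members and comparisons were chosen with earlier results of these data known. The 499 lines on sequences with gl in their name count towards the whole list only. Values were computed in Python 3.11.15 with pandas 2.3.3, numpy 2.4.6 and scipy 1.17.1, and drawn with matplotlib 3.10.9.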

Additional observations from a re-analysis of the deposited data

How the results depend on the processing

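Of 122 values recomputed under alternatives, 97 moved by less than the SD between contigs, the exact 95% interval of a share or 1.5 times a count. For spacing this SD, 26781 bp, exceeds the value itself and so separates little: spacing on the contigs was 32617.5 bp with a −log10 q of at least 5, against 12704.5 bp as reported, and that of the window 1976 bp with limits of 28 and 34 Mb, against 5374 bp. With a −log10 q of at least 5, 220 peaks remained on haplotype contigs, and the MHC contigs had a median fold of 6.01, a median width of 216 bp, 7.15 peaks per Mb, 7.10% cut into pieces and 10.7% at 10-fold or more. The window then had 6.45-fold, 348 bp and 11.97 per Mb, and the ratio of median folds of contigs to window was 0.931, against 1.004 as reported. With a span of at least 200 bp, 210 peaks remained, and the contigs had 5.09-fold, 409 bp, 7.27 per Mb, 10.5% cut and 9.80% at 10-fold or more, the window 5.81-fold and 366.5 bp, and the ratio was 0.875. The order of the widths of contigs and window thus turned at this span. These settings remove weak or narrow peaks by construction. Merging peaks within 100 bp changed no value, because the smallest gap between listed peaks was 402 bp. The values of that setting are thus among the 97 by construction and say nothing about robustness. With a window of 28 to 34 Mb the window had 5.29-fold, 347 bp, 44.98 per Mb and 17.2% cut, and the ratio was 0.850, so the likeness in fold held neither with the wider window nor, as above, once weak or narrow peaks were left out. Leaving out ssto lowered the share at 10-fold or more to 2.30%, and leaving out each contig in turn gave median folds of 4.41 to 4.57. Tolerances of 250 and 1000 bp gave 32 and 36 coinciding peaks in the first stretch of the chromosome 17 contig and 32 and 42 in the inverted one. The alternatives for the ratio of folds, the share at 10-fold or more, the retained share, the chromosome 17 stretches and, apart from its limits, the window were chosen after seeing the data. Density by contig length was not run, because no contig lengths were used. No paired analysis was possible because both libraries stand in 1 intersected list. Contigs are not replicates, and the unknown read depth and read placement limit every value.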
